A study of Mus musculus with 12 samples.

Results

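The P2X purinergic receptor genes are described here in NE-4C cells, an immortalized mouse neural progenitor line from embryonic brain. The 6 genes were *P2rx1*, *P2rx3*, *P2rx4*, *P2rx5*, *P2rx6* and *P2rx7*, of 57010 genes in the table. They were chosen by the level of *P2rx4*, which was far higher in *Faf2* KO than in WT cells in these same libraries, and by membership of its gene family. The KO against WT values of all 6 genes are therefore given as a description, without a test. Bulk mRNA-Seq was made from 12 libraries, 3 in each of 4 groups. WT NO and KO NO were untreated WT and *Faf2* KO cells. WT RA and KO RA were the same cells given 1 µM all-trans retinoic acid (RA), which induces neuronal differentiation, for 24 h and collected at day 3. KO cells were 1 line made by CRISPR/Cas9 deletion of exon 4 of *Faf2*, which encodes an adaptor of ER-associated degradation, so that the genotype and the line cannot be told apart. Replicates came from 3 passages, and RA and the time of collection cannot be told apart.

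P2X receptors are cation channels of the plasma membrane that open when extracellular ATP binds, and each channel is built from 3 subunits. They let sodium and calcium into the cell. *P2rx4* encodes a subunit with a high permeability to calcium, much of which is held in lysosomes, and it is known in the nervous system for its induction in microglia after nerve injury. *P2rx3* encodes the subunit of sensory neurons that carries pain signals, and *P2rx7* encodes a subunit that needs high ATP and is linked to release of interleukin-1 beta from macrophages and microglia.

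*P2rx4* and *P2rx7* lie side by side on 1 strand, *P2rx7* at chr5:122781942-122830400 and *P2rx4* at chr5:122845541-122867803 (GRCm39, plus strand), with 15141 bases between the end of the former and the start of the latter. *P2rx3* is at chr2:84827456-84867806 (minus strand), *P2rx1* at chr11:72889875-72906026, *P2rx5* at chr11:73050362-73066157 and *P2rx6* at chr16:17379722-17395664 (all plus). The promoters of the 3 genes with enough counts to test are shown because *P2rx4* and its neighbour *P2rx7* had such different levels. Each sequence runs 5′ to 3′ on the gene's own strand, from 250 bases before the start of the canonical transcript to 50 bases after it. The sequences lie at chr5:122845291-122845590 (plus), chr5:122781692-122781991 (plus) and chr2:84865782-84866081 (minus) of GRCm39. Capitals mark matches to any of 7 motifs searched on both strands, which were TGACG (the core of the cyclic AMP response element), CCACG (the core of the ER stress response element), AGGTCA (the half-site of nuclear receptors such as those for retinoic acid), CACGTG (the E-box), CCAAT (the CCAAT box), GGGCGG (the GC box) and TATAAA (the TATA box).
P2rx4 promoter: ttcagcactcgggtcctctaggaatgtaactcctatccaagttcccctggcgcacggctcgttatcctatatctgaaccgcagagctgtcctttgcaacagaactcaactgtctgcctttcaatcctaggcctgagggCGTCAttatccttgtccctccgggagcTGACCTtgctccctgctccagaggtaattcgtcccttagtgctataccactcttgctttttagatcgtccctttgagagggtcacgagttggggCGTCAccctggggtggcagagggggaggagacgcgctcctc
P2rx7 promoter: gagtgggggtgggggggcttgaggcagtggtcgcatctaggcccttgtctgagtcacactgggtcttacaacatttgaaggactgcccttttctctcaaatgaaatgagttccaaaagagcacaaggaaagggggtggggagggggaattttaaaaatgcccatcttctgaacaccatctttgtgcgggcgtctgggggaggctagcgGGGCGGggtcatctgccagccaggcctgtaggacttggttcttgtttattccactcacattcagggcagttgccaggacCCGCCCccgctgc
P2rx3 promoter: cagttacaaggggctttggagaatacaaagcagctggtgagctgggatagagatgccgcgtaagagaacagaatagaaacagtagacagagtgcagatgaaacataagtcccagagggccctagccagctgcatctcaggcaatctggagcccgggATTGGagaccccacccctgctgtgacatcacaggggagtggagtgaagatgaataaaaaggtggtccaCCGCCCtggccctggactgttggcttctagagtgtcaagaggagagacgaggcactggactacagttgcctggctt
The *P2rx4* promoter held 13 CpG dinucleotides, against 7 in *P2rx7* and 5 in *P2rx3*. Across the promoters of 21770 protein-coding genes the median was 11. It matched TGACG at 2 places, both written CGTCA on the strand shown, and 22.6% of promoters held at least 1 and 6.12% at least 2 such matches. AGGTCA matched once in *P2rx4*, as in 15.1% of promoters, and was not in the *P2rx3* or *P2rx7* window. The other matches were GGGCGG, present in 42.5% of promoters, at 2 places in *P2rx7* and 1 in *P2rx3*, and CCAAT, present in 39.9%, at 1 place in *P2rx3*. Such matches are letters in a window and no evidence of binding.

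The libraries held between 17370069 and 30738717 estimated counts. Levels are given as CPM, the counts scaled for library size with TMM factors, and the deposited counts are corrected for gene length. KO RA replicate 3 stood apart, with a TMM factor of 0.394 against 0.872 to 1.28 in the other 11 libraries, 23.5% of counts on mitochondrial genes against 9.10 to 17.7%, and 62.5% of counts in its 100 highest genes against 37.1 to 50.4%. *Faf2* itself was at 41.6 ± 7.42 CPM in WT NO and 22.7 ± 2.38 CPM in KO NO (SD, n = 3), without overlap, and at 40.7 ± 7.39 CPM in WT RA and 29.7 ± 9.54 CPM in KO RA, with overlap. Its log2 fold change was −0.87 without RA (edgeR's quasi-likelihood test, adjusted p = 0.179) and −0.45 with RA (adjusted p = 0.395). A gene-level count takes in the exons outside the deletion.

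*P2rx4* had the highest mean level of the P2X genes in each group, although in WT RA it lay within the spread of *P2rx3*, and it differed most between genotypes. In WT NO it was at 2.77, 2.36 and 2.36 CPM in replicates 1 to 3, and in KO NO at 35.2, 47.7 and 48.5 CPM. The lowest KO NO library was thus far above the highest WT NO library. The means were 2.50 ± 0.238 and 43.8 ± 7.49 CPM (SD, n = 3), a ratio of 17.5, and the fitted log2 fold change was 4.13 (SE 0.31). In terms of rank, the mean in WT NO was above 34.1% of the 16502 genes tested and that in KO NO above 82.3%. In bulk RNA a gene read in more cells and one with more RNA in each cell cannot be told apart.

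After RA the levels of *P2rx4* were 4.28, 4.67 and 6.06 CPM in WT and 36.8, 48.8 and 23.6 CPM in KO. The groups again did not overlap, and the lowest KO value belonged to replicate 3. The means were 5.00 ± 0.938 and 36.4 ± 12.6 CPM, with a log2 fold change of 2.87 (SE 0.29), or 3.09 without KO RA replicate 3. Scaled by library totals alone, the 3 KO RA libraries were at 47.0, 59.8 and 9.30 CPM, so that replicate 3 stayed above the WT RA range of 3.73 to 5.40 CPM. *P2rx4* and *P2rx3* were the members that did not overlap between KO NO and WT NO, and 30.7% of all genes tested did not overlap there either. *P2rx4* and *P2rx7* did not overlap between KO RA and WT RA, where 20.8% of genes did not. Since these contrasts chose the members, nothing is read from these counts.

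**Figure D1:**
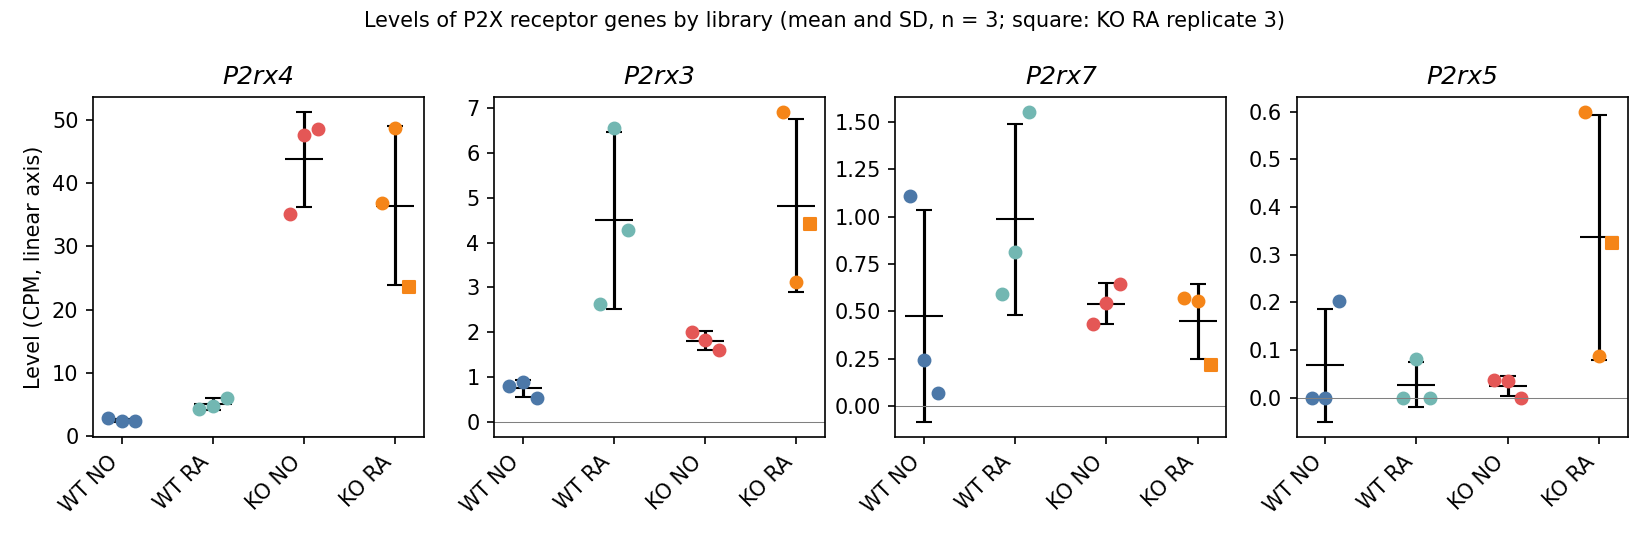
CPM (linear axis, its range different in each panel) of the 4 of the 6 P2X genes that were above 0 in more than 1 library, with a point for each library and the mean and SD (n = 3) in black; the square is KO RA replicate 3. *P2rx4* was at 2.36 to 6.06 CPM in the WT libraries and 23.6 to 48.8 CPM in the KO libraries, while *P2rx3* was highest in both RA groups.

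The response to RA within a genotype is not the contrast that chose the genes, although it is read in the same libraries, so that its tests are not fully independent of the choice. In WT cells *P2rx4* was about 2.00-fold as high with RA as without, each RA library being above each NO library, and the log2 fold change was 1.00 (SE 0.28). It did not pass the test over all genes (edgeR, adjusted p = 0.169). It passed with DESeq2 (adjusted p = 0.0110), with limma-voom (adjusted p = 0.0312) and without KO RA replicate 3 (adjusted p = 0.0130), in a range over 20 alternatives from 0.0110 to 0.775. In KO cells the RA libraries spread on both sides of the NO libraries, with a log2 fold change of −0.26 (SE 0.27, edgeR adjusted p = 0.566), or −0.04 without KO RA replicate 3. The difference between the 2 responses, KO minus WT, was −1.26 on the log2 scale (SE 0.39). It equals the difference of the KO against WT values with and without RA, which chose the gene, and is given without a test. For all genes edgeR called 0% on this difference, with 1423 genes at an unadjusted p under 0.05, and DESeq2 called 309 and limma-voom 1001. In order of level *P2rx4* thus ran from WT NO through WT RA to KO RA and KO NO, and the KO groups overlapped.

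*P2rx3*, the sensory-neuron subunit, was the P2X gene whose RA response in WT cells passed the test. It was at 0.803, 0.896 and 0.538 CPM in WT NO and at 2.64, 6.57 and 4.29 CPM in WT RA. The groups did not overlap, and each WT RA library had more than 50 counts (54.9 to 135.5) against 17.6 to 24.3 in WT NO. The log2 fold change was 2.59 (SE 0.43, edgeR adjusted p = 0.0359). Among the 3 members tested it was the 1 called, where 0.406% of all genes were called, and it and *P2rx4* were the members without overlap, as were 29.1% of all genes. The call was lost in 9 of the 12 fits that left out 1 library, all those without a WT or a KO NO library (adjusted p = 0.0605 to 0.136), and with library totals in place of TMM (adjusted p = 0.278). It was also lost with the replicate number as a block (edgeR adjusted p = 0.101). The log2 fold change stayed between 2.20 and 2.86 over 20 alternatives.

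In KO cells *P2rx3* was at 2.01, 1.82 and 1.61 CPM without RA and 6.92, 3.12 and 4.43 CPM with it. Every KO RA library was above every KO NO library with TMM scaling, but replicate 3 fell to 1.74 CPM, below the KO NO range of 1.93 to 2.35 CPM, when scaled by library totals. The log2 fold change was 1.41 (SE 0.41) and did not pass in edgeR (adjusted p = 0.0687). It passed in 5 of 20 alternatives, among them DESeq2 (adjusted p = 0.00715) and without KO RA replicate 3 (adjusted p = 0.0402), in a range from 0.00715 to 0.424. None of the 3 members tested was called there, where edgeR called 5.48% of all genes, and *P2rx3* was the 1 member without overlap, beside 30.3% of all genes. The response in KO minus that in WT was −1.17 on the log2 scale (SE 0.57), again without a test.

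Between genotypes *P2rx3* was higher in KO NO than in WT NO by 1.28 on the log2 scale (SE 0.42), and with RA the log2 fold change was 0.10 (SE 0.40), with KO RA and WT RA overlapping. Exons of *P2rx3* share 173 bases with those of *Ssrp1*, a histone chaperone gene on the opposite strand, and no source used here says whether counting used strand. *Ssrp1* was at 332 ± 74.4 CPM in WT NO and 299 ± 22.8 CPM in WT RA, and its part in the counts of *P2rx3* was not tested.

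*P2rx7* was near the limit of detection. Untreated WT cells had 1.11, 0.245 and 0.0700 CPM and untreated KO cells 0.433, 0.543 and 0.648 CPM. With RA the levels were 0.591, 0.813 and 1.55 CPM in WT cells and 0.568, 0.558 and 0.219 CPM in KO cells. In counts these were between 2.21 and 32.5 per library, and the WT NO libraries alone spanned most of that range. Without RA, KO differed from WT by a log2 fold change of 0.16 (SE 0.84), which became 1.74 without WT NO replicate 1. With RA that difference was −1.11 (SE 0.86), or −0.81 without KO RA replicate 3, and by library totals these groups overlapped. Neither RA response passed the test, with log2 fold changes of 1.04 in WT (SE 0.85, edgeR adjusted p = 0.701) and −0.23 in KO (SE 0.86, adjusted p = 0.882). The WT value was 2.62 without WT NO replicate 1, 0.51 without WT NO replicate 3 and 0.54 without WT RA replicate 3, and the KO value turned to 0.060 without KO RA replicate 3. With such standard errors, a log2 difference the size of that of *P2rx4* between WT RA and WT NO was not detectable at this depth.

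*P2rx5*, *P2rx1* and *P2rx6* did not pass the filter on low counts and were not tested. *P2rx5* was above 0 in 7 of 12 libraries, with at most 13.3 counts. In KO RA it was at 0.599, 0.0868 and 0.324 CPM in replicates 1 to 3, and all other libraries were at or below 0.204 CPM. KO RA replicate 2 lay below WT NO replicate 3, which was at 0.204 CPM, so that these groups overlapped. Exons of *P2rx5* share 2034 bases with those of *Emc6*, an ER membrane complex subunit on the opposite strand, which was at 130 ± 113 CPM in KO RA against 83.8 ± 9.04 CPM in KO NO, and its part in these counts was not tested. *P2rx1*, the subunit of smooth muscle and platelets, had 0 counts in all 12 libraries. A count of 0 allows up to 3 counts, or 0.0837 to 0.297 CPM depending on the library (counting error only). This takes 1 count as 1 read, and as the counts are corrected for gene length the limit is approximate. *P2rx6*, which rarely forms channels alone, had 0.853 counts in WT NO replicate 3 and 0 in the other 11. *P2rx2*, the family gene outside the 6, was listed at 0.0672, 0.0288 and 0.0293 CPM in KO NO, at most 2.30 counts, and at 0 elsewhere.

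Summed over the 6 genes, the P2X level of untreated cells was 3.80 ± 0.787 CPM in WT and 46.2 ± 7.40 CPM in KO (SD, n = 3). With RA it was 10.5 ± 2.61 CPM in WT and 42.0 ± 12.2 CPM in KO. *P2rx4* made up 66.8 ± 7.35% of it in untreated WT cells and 48.8 ± 9.43% with RA, and 94.7 ± 1.16% and 85.8 ± 6.09% in KO cells. The share of *P2rx3* was 19.8 ± 4.98% and 41.8 ± 10.7% in WT NO and WT RA, and 4.05 ± 1.15% and 12.3 ± 5.49% in KO NO and KO RA. In both genotypes the share of *P2rx4* was thus lower and that of *P2rx3* higher with RA, without overlap between the libraries. These shares compare genes within a library and do not depend on the scaling between libraries.

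**Figure D2:**
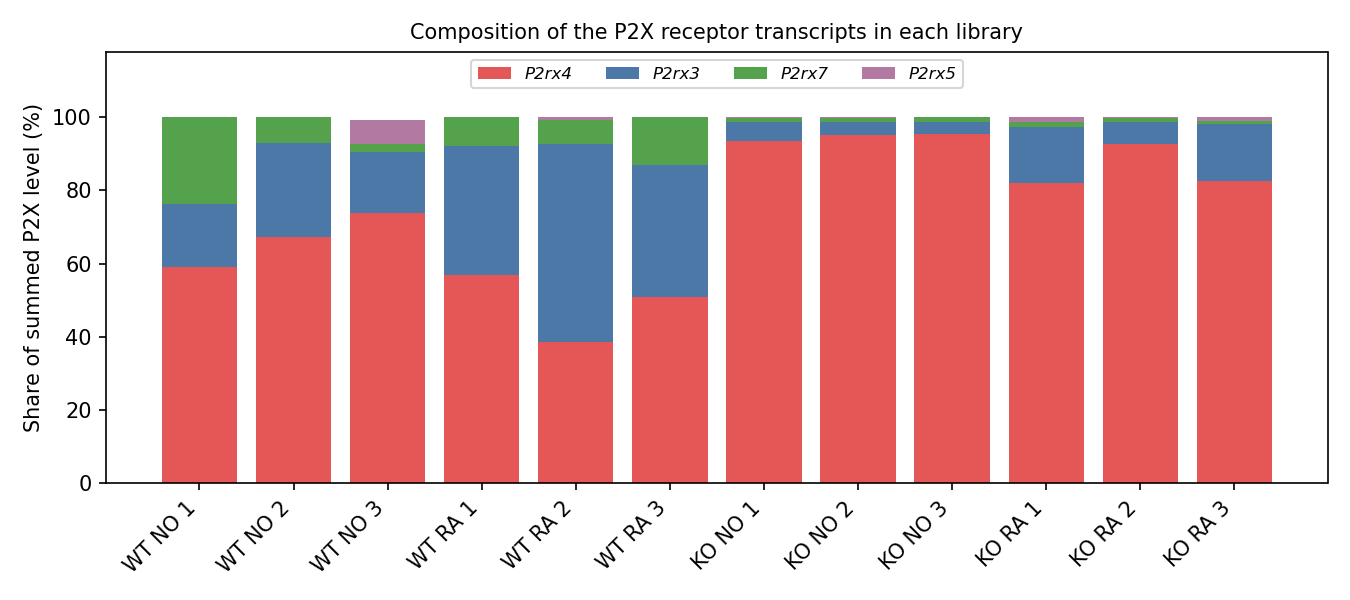
Share (%) of the summed CPM of the P2X genes taken by each gene in each of the 12 libraries, as stacked bars (*P2rx6* at 0.0260 CPM in WT NO replicate 3 is not drawn). *P2rx4* took 93.4 to 95.6% in KO NO, against 38.5 to 57.0% in WT RA, where *P2rx3* took 35.2 to 54.2%.

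**Figure D3:**
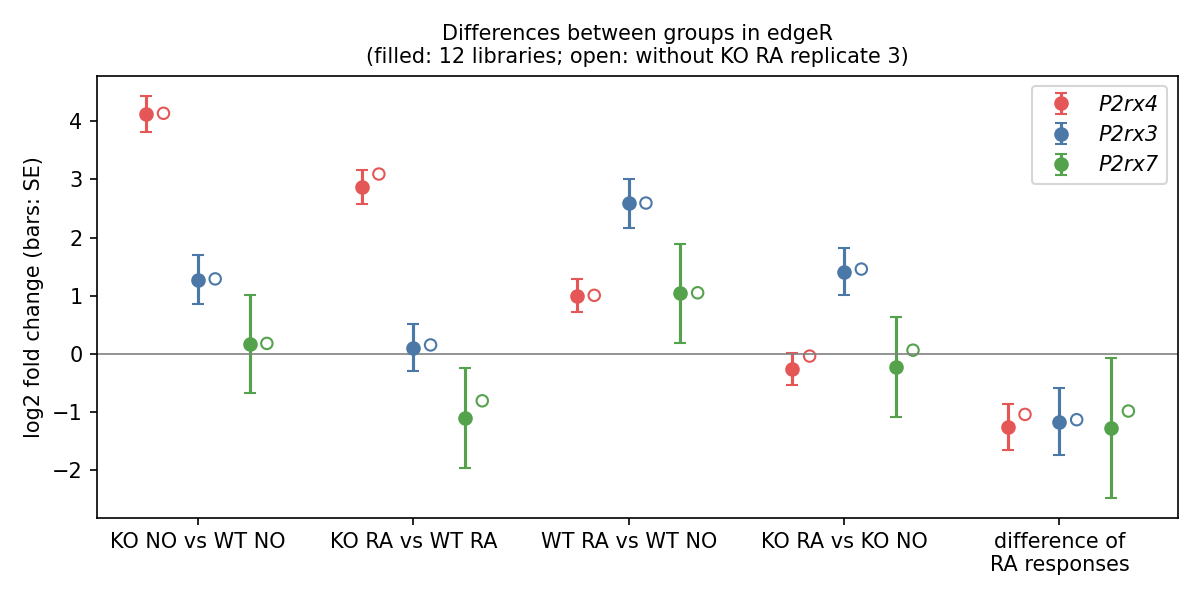
Log2 fold changes of *P2rx4*, *P2rx3* and *P2rx7* in edgeR for 4 comparisons and for the difference of the RA responses (KO minus WT), with standard errors, and open circles for the fit without KO RA replicate 3. *P2rx4* stood at 4.13 and 2.87 for KO against WT, and the largest RA response was that of *P2rx3* in WT at 2.59.

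The genes lying wholly within 250 kb of *P2rx4* did not share its difference. There were 5 such protein-coding genes, of which 4 were not P2X genes. Genes that cross the edge of this window were not taken in. All 4 passed the filter and none was called by edgeR, DESeq2 or limma-voom in either genotype comparison, nor did any reach an unadjusted p under 0.05, where edgeR called 1.14% of all genes between KO NO and WT NO and 1.24% between KO RA and WT RA. Their log2 fold changes ran from −0.34 to 0.27 without RA and from −0.00 to 0.72 with it. *Camkk2*, a calcium-dependent kinase gene on the opposite strand whose end lies 1430 bases past that of *P2rx4*, was at 8.70 ± 3.33 CPM in WT NO and 6.86 ± 2.01 CPM in KO NO (log2 fold change −0.34, SE 0.37, edgeR adjusted p = 0.851). With RA it was at 7.10 ± 1.71 and 11.6 ± 4.38 CPM (0.72, SE 0.38, adjusted p = 0.339). The adjacent gene on the other side was *P2rx7*. GENCODE also places a lncRNA, *Gm73173*, on the strand opposite *P2rx4*, sharing 166 exonic bases, and it was not among the genes counted.

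**Figure D4:**
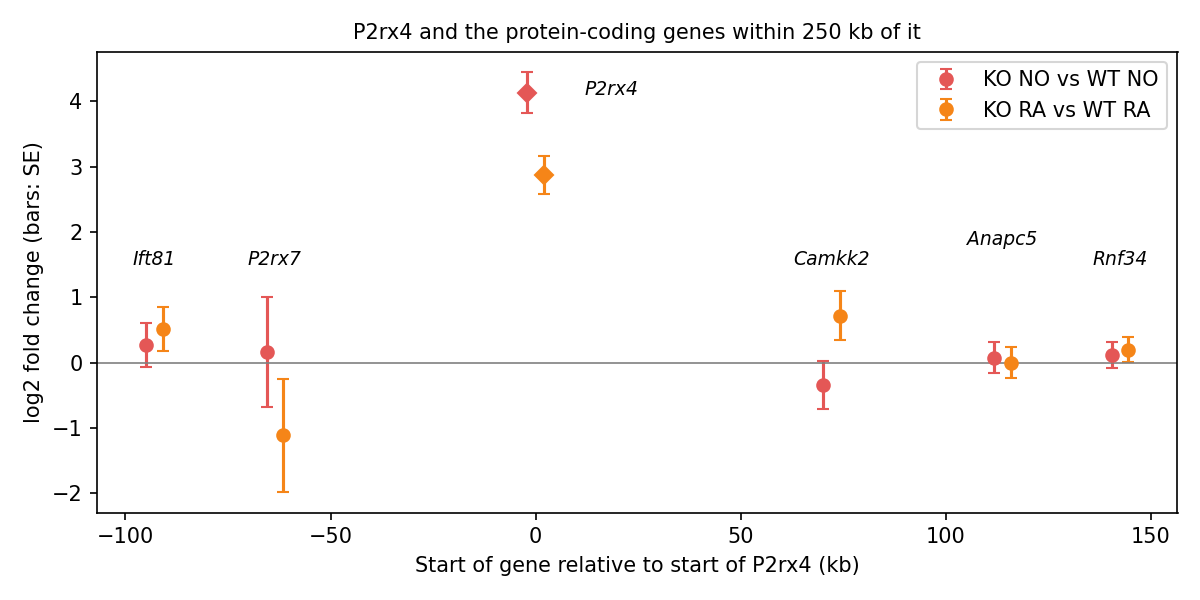
Log2 fold change and standard error of KO against WT for *P2rx4* (diamonds) and the 5 protein-coding genes wholly within 250 kb, by the distance (kb) of their starts from that of *P2rx4*. *P2rx4* stood at 4.13 and 2.87, and the 4 neighbours that are not P2X genes stayed between −0.34 and 0.72.

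The genes whose levels followed *P2rx4* most closely over the 12 libraries, by Pearson correlation of log2 CPM, were *Gm5124* (0.990), *Spag16* (0.978), *Dhdh* (0.975), *Sfrp5* (0.970) and *Mpzl2* (0.969). All 5 were low or at 0 in WT and higher in KO, so that the values rest on 2 sets of libraries and are a description only. *Mpzl2*, which encodes an adhesion protein, was at 0.0602 ± 0.0505 CPM in WT NO and 9.82 ± 0.803 CPM in KO NO. *Spag16*, an axoneme gene, was at 0.00501 ± 0.00868 and 3.25 ± 0.791 CPM in the same groups. *Sfrp5*, a secreted Wnt inhibitor, reached 0.533 ± 0.0914 CPM in KO NO. Without KO RA replicate 3 the 5 genes held ranks 1, 3, 2, 10 and 9 in the order given. The correlation with *P2rx4* was 0.413 for *P2rx3* and 0.0932 for *P2rx7*.

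Markers of microglia and macrophages, in which *P2rx4* and *P2rx7* are best known, were low in all libraries. The summed level of 9 such genes was 0.204 to 0.392 CPM in untreated WT and 0.146 to 0.486 CPM in untreated KO cells, and with RA 0.646 to 1.10 CPM and 0.102 to 1.69 CPM. *Cx3cr1*, *Csf1r*, *Tyrobp* and *Adgre1* had at most 3 counts in every library and *C1qa* had 0. *Itgam* reached 3.56, *Ptprc* 11.1, *Aif1* 27.8 and *Trem2* 22.3 counts in its highest library. The sum was higher in WT with RA without overlap, and *Trem2*, the 1 gene of the list tested, was at 0 to 0.277 CPM in WT NO and 0.483 to 1.07 CPM in WT RA (edgeR adjusted p = 0.505). The 6 neural progenitor markers, which the labelled cell type should express, summed to 254 to 300 CPM in WT NO and 255 to 289 CPM in KO NO. With RA they summed to 276 to 315 CPM in WT and 172 to 338 CPM in KO. Between KO and WT, 1 was called lower without RA and 1 with RA, beside 1.14% and 1.24% of all genes called. With RA in KO 3 were called higher, beside 5.48% of all genes called, and 0 in WT. The 6 mesenchymal markers summed to 4.66 to 81.2 CPM without and 54.7 to 227 CPM with RA in WT. There, 2 were called higher, beside 0.406% of all genes called. In KO they summed to 8.78 to 16.6 CPM and 160 to 1005 CPM, and 4 were called higher, beside 5.48% of all genes called. The 7 neuron markers summed to 77.8 to 107 CPM and 139 to 160 CPM in WT (0 called by edgeR) and to 70.1 to 87.7 CPM and 142 to 203 CPM in KO (2 called higher). The 6 astroglia markers summed to 12.2 to 15.2 CPM and 28.6 to 166 CPM in KO (1 called higher), and in WT to 12.1 to 19.1 CPM and 10.8 to 17.6 CPM. Between KO RA and WT RA 1 of them was also called higher. With RA in KO, 1 of 6 oligodendrocyte lineage markers and 2 of 6 endothelial markers were called higher (4 tested in each list), and 0 in WT. The part of these cell types in the P2X levels after RA was not tested.

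Of 55 other genes of purinergic signalling in 7 lists, 32 passed the filter. These lists were drawn up with earlier results of the data known. Between KO NO and WT NO edgeR called 0 of 32, with 9 at an unadjusted p under 0.05, 4 called by DESeq2 and 12 by limma-voom. Of all 16502 genes tested, edgeR called 1.14% there, and 2011 had an unadjusted p under 0.05. DESeq2 called 1015 of all genes and limma-voom 3575. The median log2 fold change of the 32 was −0.21 beside −0.02 for all genes tested. Between KO RA and WT RA 1 of the 32 was called, or 3.12% beside 1.24% of all genes, and the medians were −0.18 and 0.09. With RA 1 was called in WT, where 0.406% of all genes were, and 4 in KO (12.5% beside 5.48% of all genes), 2 higher and 2 lower. For the difference of the RA responses edgeR called none, with 8 at an unadjusted p under 0.05, 3 called by DESeq2 and 7 by limma-voom. Among all genes 1423 had an unadjusted p under 0.05 for this difference. DESeq2 called 309 of all genes and limma-voom 1001.

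Among the receptors, *P2ry1*, a G protein-coupled receptor for ADP, was at 1.27, 1.29 and 1.41 CPM in KO NO and rose to 9.32, 6.82 and 13.1 CPM in KO RA (log2 fold change 2.87, SE 0.36, edgeR adjusted p = 0.00192). It was called in all 20 alternatives. In WT RA it was at 1.82, 3.91 and 2.21 CPM, below every KO RA library, a log2 fold change of 1.87 for KO RA against WT RA (SE 0.35, adjusted p = 0.0301) that held in 10 of 20 alternatives (adjusted p = 4.43e-05 to 0.196). Of the 8 P2Y genes, 2 were tested, and the other, *P2ry2*, was not called. *Adora1*, the more abundant of 2 adenosine receptor genes tested, was at 1.18 ± 0.443 CPM in KO NO and 4.18 ± 3.41 CPM in KO RA and was not called (adjusted p = 0.0921).

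Among the genes that release, cleave or take up nucleotides and adenosine, *Slc29a1*, the equilibrative transporter of adenosine, fell with RA in both genotypes. It was at 54.1, 60.0 and 75.2 CPM in WT NO in replicates 1 to 3 and at 28.1 ± 3.32 CPM (SD, n = 3) in WT RA (log2 fold change −1.17, SE 0.20, edgeR adjusted p = 0.0368, held in 6 of 20 alternatives, from 4.19e-09 to 0.446). In KO it was at 41.4, 39.8 and 37.8 CPM without RA and 18.8, 19.8 and 15.1 CPM with it (−1.14, SE 0.20, adjusted p = 0.0101, held in 16 of 20, from 4.66e-08 to 0.221). The groups did not overlap in either genotype, nor did those of 29.1% of all genes tested in WT and 30.3% in KO. *Enpp3*, which cleaves extracellular nucleotides, fell in KO cells from 203 ± 23.5 to 80.9 ± 11.3 CPM (−1.32, SE 0.30, adjusted p = 0.0304, held in 12 of 20, from 0.000423 to 0.163). *Lrrc8c*, a subunit of volume-regulated anion channels that can pass ATP, rose in KO cells from 4.34 ± 1.18 to 11.9 ± 3.48 CPM (1.45, SE 0.32, adjusted p = 0.0254, held in 13 of 20, from 9.13e-05 to 0.343). Of 3 effectors linked to P2X receptors that were tested, edgeR and DESeq2 called none in any comparison. *Mapk14*, the p38 kinase gene and the most abundant of them, was at 38.3 ± 3.31 CPM in WT NO and 25.9 ± 3.76 CPM in KO NO (edgeR adjusted p = 0.644), and limma-voom called it there (0.0135) and for RA in WT (0.0341), where it also called *Il18* (0.0182). *Bdnf*, a growth factor gene, had log2 fold changes of 1.75 for KO NO against WT NO, 1.33 for KO RA against WT RA, 1.84 for RA in WT and 1.42 for RA in KO. Their edgeR adjusted p was 0.238, 0.267, 0.236 and 0.160, and none of 19 alternatives called *Bdnf* in any of these comparisons (adjusted p = 0.0612 to 0.611).

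**Figure D5:**
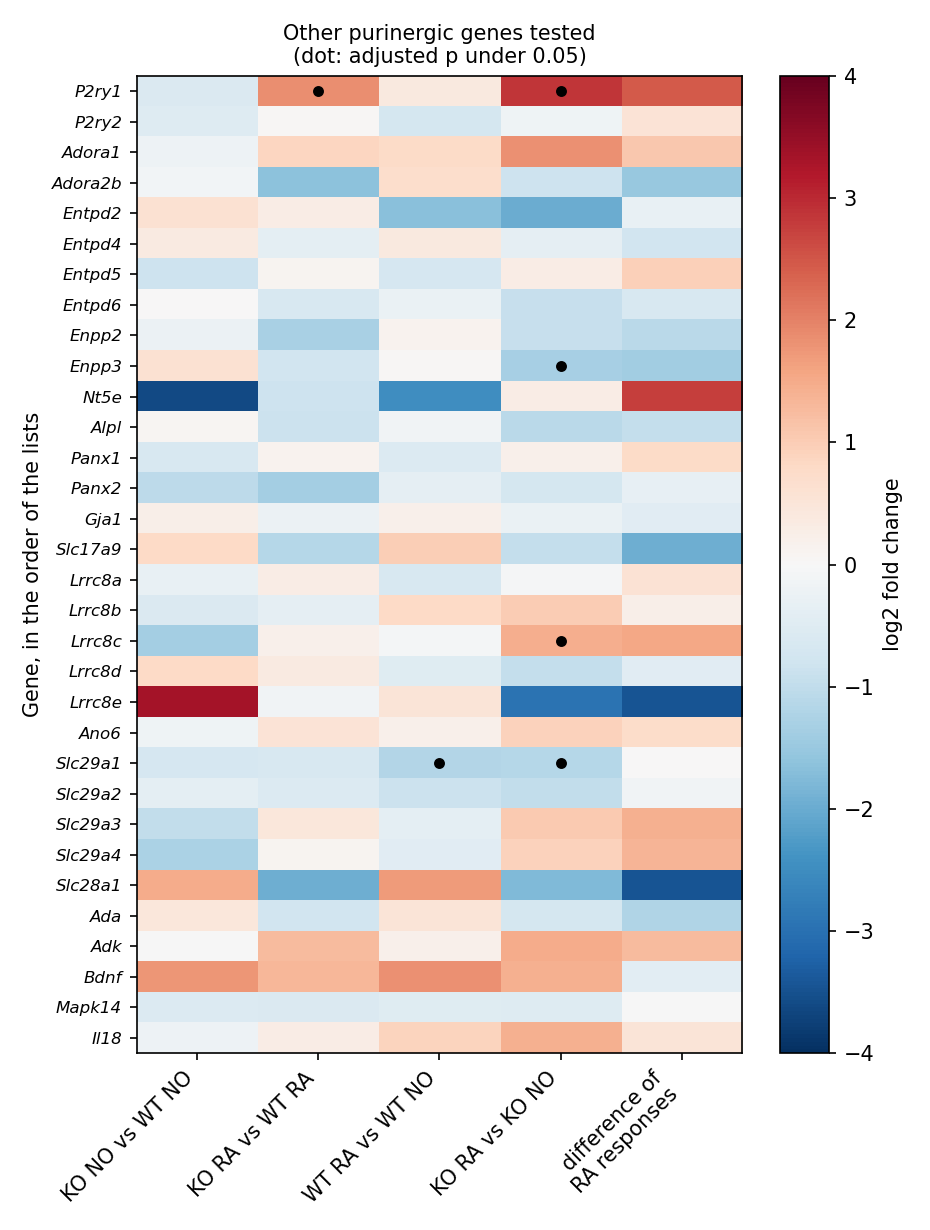
Log2 fold changes (colour) of the 32 other purinergic genes tested, in the order of their lists, for 4 comparisons and the difference of the RA responses, with a dot where the adjusted p was under 0.05. The 6 dots are those of *P2ry1* (2.87 and 1.87), *Slc29a1* (−1.17 and −1.14), *Enpp3* (−1.32) and *Lrrc8c* (1.45), and none stands under KO NO against WT NO.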

How the data were processed

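Libraries were made by the authors from polyA RNA of 3 passages per group and processed with nf-core/rnaseq at its default settings (STAR and Salmon) on GRCm39. The authors deposited estimated counts of each gene, made by Salmon from the aligned reads. By their name they were scaled from TPM to the total of the library, which corrects for gene length and leaves libraries unscaled between each other. Counts were rounded and tested in edgeR 4.0.16 (R 4.3.3) with TMM factors, filterByExpr over the 4 groups (16502 genes kept) and robust quasi-likelihood fits of all 12 libraries with 1 coefficient per group. Calls were made where the p adjusted over all genes tested (Benjamini-Hochberg) was under 0.05.

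The members, gene lists and tests were chosen with earlier results of these data known. Besides the members and *Faf2*, named genes are every called gene of a purinergic list (without a call, the one with the highest mean CPM), the genes adjacent to *P2rx4* and the 5 genes with the highest Pearson correlation with it (log2 CPM, prior count 2). *P2ry2*, *Bdnf* and *Il18*, and *Ssrp1*, *Emc6* and *Gm73173*, which overlap members, were named after their values were seen. Other alternatives used DESeq2 1.42.0 and limma 3.58.1 (voom with sample quality weights), other filters and scalings, the replicate number as a block, and each library left out in turn. Library totals without TMM factors were added after the values were seen. Positions and promoters came from GENCODE and the GRCm39 sequence, which matched 56310 of 57010 gene IDs by stable ID. Column names were tied to samples through their titles. P-values measure the spread between passages of 1 WT and 1 KO line.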

Additional observations from a re-analysis of the deposited data

How the results depend on the processing

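Every fit kept the sign of the KO against WT values of *P2rx4* and of its RA response in WT. That response had a log2 fold change of 1.01 with DESeq2, 0.95 with limma-voom and 0.84 to 1.10 with 1 library left out (1.00 without KO RA replicate 3), and was called with the former 2 and without KO RA replicate 3. The RA comparisons of *P2rx3* and *P2rx7* gave 2 calls with DESeq2, 2 with limma-voom, 2 with at least 10 counts in every library (which drops *P2rx7*), 0 with library totals, and 0 to 2 with 1 library left out, against 1 as reported. *P2rx7* in KO turned from −0.23 to 0.033 with limma-voom and ran from −0.44 to 0.060 with 1 library left out, the latter without KO RA replicate 3.

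Calls among the 32 purinergic genes between KO NO and WT NO numbered 4 with DESeq2, 12 with limma-voom and 0 to 4 with 1 library left out. The same fits called 1015, 3575 and 40 to 1521 of all genes. Between KO RA and WT RA the purinergic calls numbered 3 with DESeq2, 9 with limma-voom, 0 with only the groups compared, 0 with library totals and 0 to 4 with 1 library left out. Calls among all genes in these fits numbered 1315, 2993, 16, 89 and 19 to 1707. For RA in WT the purinergic calls were 7 with limma-voom, 0 with no filter, 0 with library totals and 0 to 3 with 1 library left out. Those of all genes were 3576, 43, 0 and 0 to 1868. For RA in KO the purinergic calls were 8 with DESeq2, 16 with limma-voom, 1 with only the groups compared, 1 with library totals and 1 to 10 with 1 library left out. Those of all genes were 2632, 4534, 196, 140 and 194 to 2776. For the difference of the responses the purinergic calls were 3 with DESeq2, 7 with limma-voom and 0 to 1 with 1 library left out. Those of all genes were 309, 1001 and 0 to 232. In each comparison the highest left-out count was that without KO RA replicate 3, both for the purinergic genes and for all genes. The cause was not tested.

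Samples with the same replicate number did not deviate together (correlations −0.167 to 0.0677, against −0.0754 to 0.144 for other pairs). This gave no sign that the numbers pair them, but with 3 libraries in a group it cannot exclude a pairing. The replicate block gave 0 calls for *P2rx3* and *P2rx7* (*P2rx3* for RA in WT, edgeR adjusted p = 0.101). Among the purinergic genes the block gave 0, 0, 0, 2 and 0 calls in the order above, beside 56, 59, 10, 467 and 0 among all genes. For *P2rx4* it left each call as it was. Library totals moved the median of all genes to −0.26 for RA in WT and −0.17 in KO, from −0.01 and 0.11. *P2rx1* and *P2rx6* stayed under 3 counts in every library, and no difference in them was detectable at this depth.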

Other observations

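*Lrrc8e* and *Nt5e* had the largest fitted KO NO against WT NO differences among the purinergic genes and were named after their values were seen. *Lrrc8e*, another subunit of volume-regulated anion channels, was at 0.377, 0.526 and 0.524 CPM in KO NO, and at 0 to 0.114 CPM in the other 9 libraries. Its KO NO and WT NO groups did not overlap, nor did those of 30.7% of all genes tested. Its log2 fold change of 3.33 (SE 0.98) did not pass in edgeR (adjusted p = 0.153, or 0.00687 to 0.450 over 19 alternatives, of which 2 called it), with at most 18.8 counts in any library. *Nt5e*, the enzyme that makes adenosine from AMP outside the cell, was at 0.836, 0.452 and 5.18 CPM in WT NO and 0.0859, 0.291 and 0.138 CPM in KO NO (log2 fold change −3.60, SE 1.09, edgeR adjusted p = 0.166, or 0.0193 to 0.505 over 19 alternatives, of which 2 called it). Without WT NO replicate 3 the log2 fold change was −1.86.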
